A study of Mus musculus with 4 samples.

Results

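The respiratory chain and ATP synthase genes are the nuclear genes of oxidative phosphorylation. They were taken by symbol as the Nduf genes with a letter from a, b, c, s or v, Sdha to Sdhd, the Uqcr genes, Cox4 to Cox8 genes, the Atp5 genes, Cycs and Cyc1, without Cox6a2 and pseudogene symbols. The rule found 97 of the 26026 genes in the deposited table, namely 47 of complex I (8 of them assembly factors), 4 of complex II, 9 of complex III, cytochrome c itself, 19 of complex IV and 17 of complex V. Subunits encoded by mitochondrial DNA were not analysed here.

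Polyadenylated RNA was sequenced from mouse bone marrow-derived dendritic cell (BMDC) cultures grown with Flt3 ligand (100 ng/mL), a growth factor under which marrow progenitors become dendritic cells. The 4 libraries were Nfkb1-/- (C57/B16) cells at day 5, wild-type (C57/B16) cells at day 5, Nfkb1-/- cells at day 3 and wild-type cells at day 3, all grown in the same medium, which was replenished at day 3. Nfkb1 encodes the NF-kB precursor p105 and its processed form p50, and the series asked how p50 and RelA act together during this differentiation. Each group was 1 library, so every difference given here lacks a replicate check within its group, the differences between 2 libraries have no test, and the labels name neither the disrupted part of Nfkb1 nor the number of mice behind a culture.

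The respiratory chain passes electrons from NADH (complex I) or succinate (complex II) through ubiquinone to complex III, then by cytochrome c to complex IV, which reduces oxygen. Complexes I, III and IV pump protons across the inner mitochondrial membrane, and complex V, the ATP synthase, lets them flow back and makes ATP. In dendritic cells, oxidative phosphorylation is known as the main energy source of resting cells, and inflammatory activation shifts them towards glycolysis.

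Values are RPKM, reads scaled to the length of the transcript and to the library total. Levels can thus be set side by side between genes where the transcript lengths used hold. Library totals recovered from the values were 15398985 reads in the knockout and 16116361 in wild type at day 5, and 16215214 in the knockout and 15255070 in wild type at day 3. Nfkb1 itself stood at 64.7 RPKM in the knockout and 114 RPKM in wild type at day 5, and at 56.0 RPKM in the knockout and 74.8 RPKM in wild type at day 3. It was lower in both knockout libraries but not absent, and a value over the whole gene does not tell transcripts with the disruption from intact ones. The dendritic cell markers Flt3 and Itgax were present in all libraries. Flt3 was at 56.6 RPKM in the knockout and 84.8 RPKM in wild type at day 5, and at 32.2 and 29.9 RPKM in the same order at day 3. Itgax was at 20.03 RPKM in the knockout and 55.3 RPKM in wild type at day 5, and at 11.1 and 18.4 RPKM at day 3.

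Promoter sequences are shown for 4 genes: the genes with the largest and the second largest genotype difference at day 3 (Cycs and Atp5g1), the complex I gene with the largest mean genotype difference (Ndufaf4), and Sdhb, the only one of them that holds a kappa B match. They are the 250 bases before the annotated start in RefSeq on the GRCm38.p6 build, 5′ to 3′ on the strand of the gene. Capitals mark matches to the NRF1 motif GCGCATGC or, in Sdhb, first to the kappa B motif GGNNTTTCC, on either strand. Cycs lies at chr6:50566570-50566819 on the minus strand, Sdhb at chr4:140961021-140961270 and Ndufaf4 at chr4:24897833-24898082, both on the plus strand, and Atp5g1 at chr11:96075632-96075881 on the minus strand.
Cycs: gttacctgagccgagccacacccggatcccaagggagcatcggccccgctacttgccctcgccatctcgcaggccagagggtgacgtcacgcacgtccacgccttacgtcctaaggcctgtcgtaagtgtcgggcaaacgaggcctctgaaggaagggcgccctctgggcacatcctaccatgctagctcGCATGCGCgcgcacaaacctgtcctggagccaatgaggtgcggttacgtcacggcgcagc
Sdhb: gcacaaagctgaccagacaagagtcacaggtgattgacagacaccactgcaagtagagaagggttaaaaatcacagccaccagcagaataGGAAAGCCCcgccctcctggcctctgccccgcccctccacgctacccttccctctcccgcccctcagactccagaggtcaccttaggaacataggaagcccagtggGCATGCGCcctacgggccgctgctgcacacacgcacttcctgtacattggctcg
Ndufaf4: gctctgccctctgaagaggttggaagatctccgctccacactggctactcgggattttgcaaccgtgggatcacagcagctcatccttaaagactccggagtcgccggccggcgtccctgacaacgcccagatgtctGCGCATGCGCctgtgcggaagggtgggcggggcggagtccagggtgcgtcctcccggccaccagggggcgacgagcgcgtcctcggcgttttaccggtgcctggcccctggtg
Atp5g1: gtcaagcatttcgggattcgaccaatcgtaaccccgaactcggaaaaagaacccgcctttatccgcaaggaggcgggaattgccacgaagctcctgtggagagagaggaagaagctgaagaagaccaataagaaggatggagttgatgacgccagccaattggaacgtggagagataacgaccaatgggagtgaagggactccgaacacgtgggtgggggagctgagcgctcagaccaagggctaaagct
The NRF1 match begins 60 bases before the start in Cycs and 54 bases before it in Sdhb, where the kappa B match begins 160 bases before the start. In Ndufaf4, matches on both strands overlap, at 113 and 111 bases before the start. NRF1 is a transcription factor known for its sites in respiratory chain promoters. The Atp5g1 window held none of these letters. Neither did the 250 bases before the start of Uqcrc1 and Cox7a2l, which are not shown. The 4 genes thus do not stand for the rest. Over the 76 genes with a window that also holds 50 bases after the start, 17.1% had the NRF1 letters.

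Most of these genes were expressed well above the middle of the table. Genes that averaged 1 RPKM or more across the libraries were kept, which left 90 of the 97 genes and 11786 of all genes. The median level of the 90 genes was 61.4 RPKM in the knockout and 52.96 RPKM in wild type at day 5, and 56.8 RPKM in the knockout and 42.6 RPKM in wild type at day 3. The median of all genes that passed lay between 8.36 and 9.38 RPKM in the 4 libraries. The summed level of the 97 genes was 6747 RPKM in the knockout and 5645 RPKM in wild type at day 5, which is 2.14% and 1.75% of the summed table. At day 3 the sum was 5935 RPKM in the knockout and 4513 RPKM in wild type, or 1.77% and 1.43% of the table. The wild-type library at day 3 thus held the lowest sum and the knockout library at day 5 the highest.

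**Figure D1:**
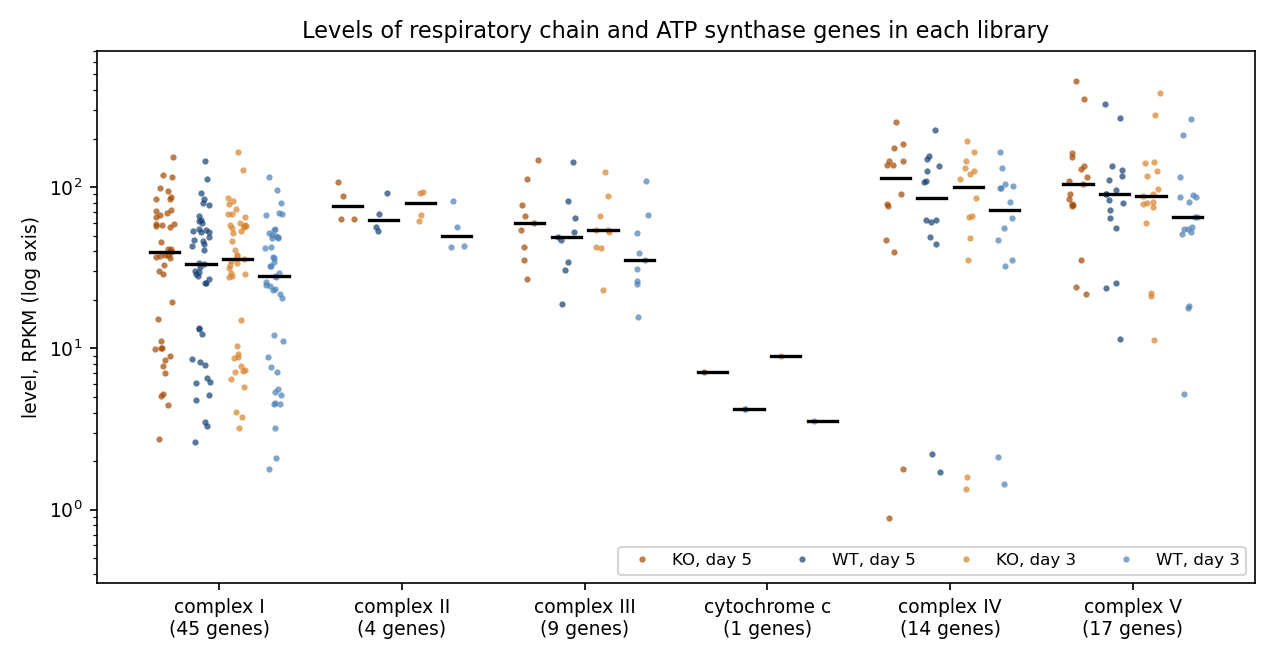
Level of each of the 90 genes in RPKM on a log axis, by complex, with 1 point per gene and library and a bar at the median. In every complex the wild-type library at day 3 has the lowest median, for example 65.2 RPKM in complex V against 104 RPKM in the knockout at day 5.

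The complexes kept similar shares of the summed level in all libraries. Complex V took 32.6% in the knockout and 31.5% in wild type at day 5, and 32% in the knockout and 30.4% in wild type at day 3. Complex I took between 30.9% and 33.1%, complex IV between 21.9% and 22.9%, complex III between 8.87% and 9.24% and complex II between 4.78% and 5.3%. Cytochrome c stood apart, with 0.106% in the knockout and 0.0749% in wild type at day 5, and 0.152% in the knockout and 0.0783% in wild type at day 3.

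Nearly all of these genes were higher in the knockout than in wild type on both days, by small amounts. Differences are of log2(RPKM + 1), knockout minus wild type, a scale that understates the change of low genes. At day 5 the median of the 90 genes was 0.25, against 0.01 over all 11786 genes, and 81 of the 90 were higher in the knockout, against 51.2% of all genes, and 9 lower, against 48.8%. At day 3 the median was 0.39, against 0.13 over all genes, and 85 were higher, against 66.6% of all genes, and 5 lower, against 33.4%. The 2 comparisons share no library, and 80 of the 90 genes were higher in the knockout on both days, against 41.2% of all genes. The differences rarely reached 1, which is a doubling of RPKM + 1. At day 5 none of the 90 was higher by at least 1 (1.16% of all genes) and none lower (3.22%). At day 3 it was Cycs alone that was higher by at least 1 (0.976% of all genes), and none was lower (0.882%). A smaller size of 0.5 was reached upwards by 9 genes at day 5 (8.54% of all genes) and 27 at day 3 (10.8%), and downwards by 1 gene, Cox6b2, at day 5 (11.5%) and by none at day 3 (4.43%). At day 5 the 9 genes are about the share of all genes.

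On the recovered library totals, the knockout excess was larger than the counting error for most of them. Exact 95% intervals of the ratio of reads, which cover counting error only, lay above 1 for 55 of the 90 genes at day 5 (29% of all genes) and for 71 at day 3 (41.1%). They lay below 1 for 2 genes, Cox7a2l and Atp5e, at day 5 (28%) and for none at day 3 (13.8%). On both days together, 48 genes had an interval above 1, against 20.9% of all genes. The 72 genes with at least 200 reads in every library had a median of 0.25 at day 5 and of 0.39 at day 3.

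The scale of the libraries moves these values. When the libraries were rescaled by the median ratio of all genes, the median of all genes at day 3 went to -0.02, and 79 of the 90 genes were then higher in the knockout at day 5 (49.1% of all genes) and 78 at day 3 (47.6%). On that scale the size of 0.5 was reached upwards by 7 genes at day 5 (7.76% of all genes) and by 8 at day 3 (5.12%). The intervals of the ratio were not taken on that scale. Its factors at day 3, 1.02 in the knockout and 0.911 in wild type, lower every ratio of that day. Fewer intervals may thus lie above 1 there. The gap between the median of these genes and that of all genes lay between 0.17 and 0.25 at day 5, and between 0.20 and 0.34 at day 3, over the scalings, pseudocounts and filters tried. Among genes with a mean of 20 RPKM or more, 4 of 72 reached 0.5 upwards at day 5 (11.4% of all such genes) and 21 at day 3 (13.9%).

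**Figure D2:**
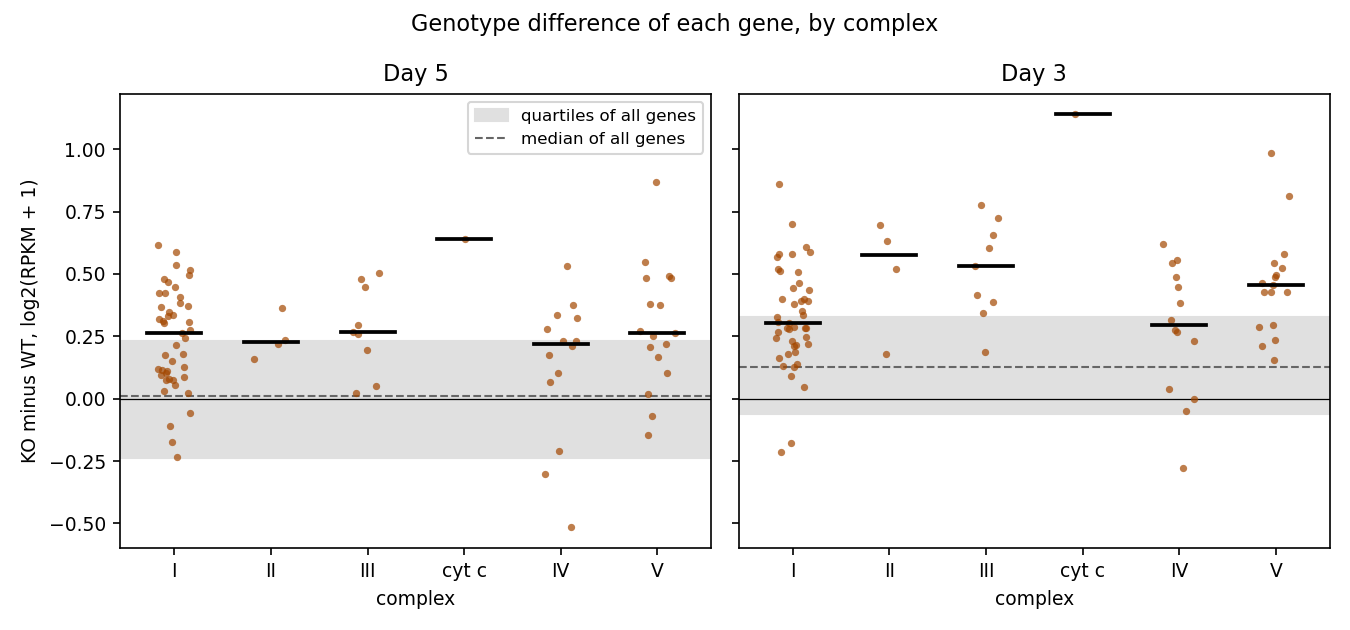
Knockout minus wild type in log2(RPKM + 1) for each gene by complex, day 5 on the left and day 3 on the right, with bars at the medians, and the median and quartiles of all 11786 genes as a dashed line and a grey band. The median of each complex lies above that of all genes on both days, and Cycs is highest at day 3, at 1.14.

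Complex I oxidises NADH and is the largest complex of the chain. Its 45 genes that passed the filter had a median difference of 0.26 at day 5 and 0.30 at day 3. Of them, 41 were higher in the knockout at day 5 (51.2% of all genes) and 43 at day 3 (66.6%). The 7 nuclear core subunits, which hold the flavin and the iron-sulfur clusters, had a median of 0.28 at day 5 and of 0.30 at day 3. Each of the 7 was higher in the knockout on both days (41.2% of all genes). Ndufv1, which carries the FMN that takes electrons from NADH, was at 45.6 RPKM in the knockout and 43.1 RPKM in wild type at day 5, and at 46.4 RPKM in the knockout and 32.2 RPKM in wild type at day 3. The interval of its ratio held 1 at day 5 (0.971 to 1.15) and lay above 1 at day 3 (1.31 to 1.58). Ndufs1, the largest iron-sulfur subunit, was the lowest core subunit, at 15.2 RPKM in the knockout and 12.3 RPKM in wild type at day 5, and at 14.9 RPKM in the knockout and 11.1 RPKM in wild type at day 3.

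The 30 accessory subunits of complex I had a median of 0.25 at day 5 and of 0.28 at day 3. Ndufb1 had the highest mean level of complex I, at 154 RPKM in the knockout and 146 RPKM in wild type at day 5, and at 165 RPKM in the knockout and 116 RPKM in wild type at day 3. The accessory subunits Ndufc1, Ndufs6 and Ndufs5 were chosen after their values were seen, because their differences are far apart on the 2 days. Ndufc1, a small membrane subunit, differed by 0.31 at day 5 and 0.86 at day 3, while Ndufs6, which binds zinc, differed by 0.62 at day 5 and 0.28 at day 3. Ndufs5 was at 19.3 RPKM in the knockout and 13.2 RPKM in wild type at day 5, but at 10.3 RPKM in the knockout and 12.1 RPKM in wild type at day 3. Its ratio had an interval of 1.14 to 1.89 at day 5 and of 0.627 to 1.15 at day 3, so that only the day 5 difference passed the counting error.

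The 8 Ndufaf assembly factors, which build complex I but are not part of it, were the low end of the complex, with medians of 6.86 RPKM in the knockout and 5.66 RPKM in wild type at day 5, and of 6.48 RPKM in the knockout and 4.54 RPKM in wild type at day 3. Ndufaf4 had the largest mean difference of complex I. It stood at 5.24 RPKM in the knockout and 3.30 RPKM in wild type at day 5, and at 4.02 RPKM in the knockout and 2.09 RPKM in wild type at day 3. At day 5 the ratio was 1.59 (1.32 to 1.92), and at day 3 it was 1.92 (1.53 to 2.42), so both knockout libraries were above both wild-type libraries. Ndufaf2, which joins a late assembly step, differed by 0.59 at day 5 and 0.35 at day 3, and Ndufaf5 by 0.06 and 0.61. Ndufaf8 had the lowest mean difference of complex I. It was at 11.2 RPKM in the knockout and 13.3 RPKM in wild type at day 5, and at 7.74 RPKM in the knockout and 8.89 RPKM in wild type at day 3. Its ratios had intervals that hold 1 on both days (0.623 to 1.13 at day 5 and 0.606 to 1.25 at day 3).

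Complex II, succinate dehydrogenase, is also an enzyme of the TCA cycle, and all 4 of its subunits are nuclear. The flavoprotein Sdha, which oxidises succinate, was at 108 RPKM in the knockout and 92.5 RPKM in wild type at day 5, and at 93.3 RPKM in the knockout and 82.3 RPKM in wild type at day 3. The iron-sulfur subunit Sdhb was at 88.1 RPKM in the knockout and 68.2 RPKM in wild type at day 5, and at 92.2 RPKM in the knockout and 56.5 RPKM in wild type at day 3. All 4 genes were higher in the knockout on both days (41.2% of all genes), but not to the same extent at day 3. The membrane anchor Sdhc was at 63.3 RPKM in the knockout and 56.5 RPKM in wild type at day 5, and at 67.4 RPKM in the knockout and 43.1 RPKM in wild type at day 3. The other anchor, Sdhd, was at 63.5 RPKM in the knockout and 53.7 RPKM in wild type at day 5, and at 61.6 RPKM in the knockout and 42.6 RPKM in wild type at day 3. At day 3 the ratio was 1.13 (1.08 to 1.19) for Sdha, below 1.63 (1.50 to 1.77) for Sdhb, 1.56 (1.43 to 1.71) for Sdhc and 1.44 (1.32 to 1.58) for Sdhd. The interval of Sdha did not overlap with the others there. At day 5 the ratios of the 4 genes lay closer together, at 1.17 (1.12 to 1.22), 1.29 (1.19 to 1.39), 1.12 (1.03 to 1.22) and 1.18 (1.09 to 1.28) in the same order.

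Complex III passes electrons from ubiquinol to cytochrome c. All 9 of its genes were higher in the knockout on both days (41.2% of all genes), with a median of 0.27 at day 5 and of 0.53 at day 3. Of its catalytic subunits, Cyc1 (cytochrome c1) was at 42.5 RPKM in the knockout and 34.4 RPKM in wild type at day 5, and at 42.3 RPKM in the knockout and 25.2 RPKM in wild type at day 3. The Rieske iron-sulfur protein Uqcrfs1 was at 53.8 RPKM in the knockout and 53.0 RPKM in wild type at day 5, and at 54.0 RPKM in the knockout and 31.1 RPKM in wild type at day 3. The other 3 libraries were thus alike for Uqcrfs1, and wild type at day 3 stood below them. Its genotype difference of 0.02 at day 5 against 0.78 at day 3 was the largest drop among the 90 genes, for which reason it was chosen after its values were seen. For Cyc1 the differences were 0.30 at day 5 and 0.72 at day 3. Among the accessory subunits, Uqcrq had the largest mean difference of the complex, 0.50 at day 5 and 0.53 at day 3, on levels of 27.0 RPKM in the knockout and 18.8 RPKM in wild type at day 5. Uqcrh, the hinge subunit, had the highest level and the smallest mean difference, at 148 RPKM in the knockout and 143 RPKM in wild type at day 5, and at 124 RPKM in the knockout and 109 RPKM in wild type at day 3.

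Cycs, the somatic cytochrome c that shuttles electrons to complex IV and triggers the caspase cascade when it leaves mitochondria, had the largest genotype difference of all these genes at day 3. It was at 7.14 RPKM in the knockout and 4.23 RPKM in wild type at day 5, and at 8.99 RPKM in the knockout and 3.53 RPKM in wild type at day 3. Both knockout libraries were above both wild-type libraries, with a ratio of 1.69 (1.42 to 2.01) at day 5, against 2.55 (2.13 to 3.05) at day 3. Its listed level was low for a gene of the chain, and the annotation used here holds 4 other genes with nearly identical sequence, so that reads of Cycs could have been split or dropped in the authors' counting.

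Complex IV, cytochrome c oxidase, reduces oxygen to water, and its nuclear subunits surround a core encoded by mitochondrial DNA. Of 14 genes that passed the filter, 11 were higher in the knockout at day 5 (51.2% of all genes) and 11 at day 3 (66.6%). The medians were 0.22 and 0.30. Cox4i1 had the highest level, at 254 RPKM in the knockout and 225 RPKM in wild type at day 5, and at 194 RPKM in the knockout and 165 RPKM in wild type at day 3. Cox7b had the largest mean difference, at 90.2 RPKM in the knockout and 62.0 RPKM in wild type at day 5. At day 3 it was at 64.9 RPKM in the knockout and 47.3 RPKM in wild type. Cox7b has 2 near-identical copies in the annotation, both pseudogenes. Ndufa4, first assigned to complex I and now placed in complex IV, was at 184 RPKM in the knockout and 157 RPKM in wild type at day 5, and at 164 RPKM in the knockout and 132 RPKM in wild type at day 3.

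Several complex IV subunits come as isoform genes, and the cultures used 1 isoform of each almost alone. Cox4i1 made up at least 99.5% of the summed Cox4i level in every library, the rest being Cox4i2, the isoform known from lung and hypoxia. Cox6b1 made up between 97.9% and 99.4% of the Cox6b level, the rest being the testis isoform Cox6b2. Cox6b2 was the only one of the 90 genes that was lower in the knockout by 0.5, at 0.890 RPKM in the knockout and 1.70 RPKM in wild type at day 5, and at 1.58 RPKM in the knockout and 2.13 RPKM in wild type at day 3. These are few reads, and the interval of the ratio held 1 on both days (0.194 to 1.30 and 0.351 to 1.54). Cox8a was at 137 RPKM in the knockout and 109 RPKM in wild type at day 5, and at 119.7 RPKM in the knockout and 99.2 RPKM in wild type at day 3, while Cox8b, known from muscle, Cox8c and Cox7b2, known from testis, stood at the lowest value of the table, 1 read, in all libraries. Ndufa4l2, the hypoxia-inducible relative of Ndufa4, was below 0.3 RPKM in all libraries.

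The Cox7a family held a gene that did not go with the rest. Cox7a2, the subunit used outside muscle, was at 76.5 RPKM in the knockout and 62.9 RPKM in wild type at day 5, and at 86.0 RPKM in the knockout and 55.6 RPKM in wild type at day 3. Cox7a2l, a related protein known for joining complexes III and IV into supercomplexes, was at 39.7 RPKM in the knockout and 49.2 RPKM in wild type at day 5, and at 35.37 RPKM in both genotypes at day 3. Cox7a2 was thus higher in the knockout on both days, and Cox7a2l was lower at day 5 and equal at day 3. The ratio of Cox7a2l was 0.808 (0.731 to 0.892) at day 5 and had an interval of 0.895 to 1.12 at day 3. Cox7a2l has 1 copy in the annotation, a pseudogene at 100% identity, so its reads could have been split or dropped in the counting. The muscle isoform Cox7a1 was between 1.35 and 2.20 RPKM in the 4 libraries.

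Complex V had 17 genes, all of which passed the filter. Its ratio of summed levels at day 5 was the largest among the complexes, 1.24, against between 1.17 and 1.19 for complexes I to IV. A sum weighs the highest genes most, and by the median difference at day 5 complex V (0.262) was below complexes I (0.264) and III (0.268). At day 3 the ratio of sums was 1.38 for complex V, 1.40 for complex II, 1.36 for complex III, 1.27 for complex IV and 1.25 for complex I. In the F1 head, the catalytic beta subunit Atp5b had the highest level of all 97 genes, at 457 RPKM in the knockout and 327 RPKM in wild type at day 5, and at 384 RPKM in the knockout and 262 RPKM in wild type at day 3. At day 5 its ratio was 1.40 (1.36 to 1.44), and at day 3 it was 1.46 (1.42 to 1.50). The alpha subunit Atp5a1 was next, at 349 RPKM in the knockout and 269 RPKM in wild type at day 5, and at 282 RPKM in the knockout and 209 RPKM in wild type at day 3. The gamma subunit Atp5c1, the rotor shaft, differed by 0.21 at day 5 and 0.46 at day 3, and the delta subunit Atp5d by 0.27 and 0.43.

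The epsilon subunit Atp5e of the same head went the other way at day 5. It was at 115 RPKM in the knockout and 127 RPKM in wild type at day 5, but at 126 RPKM in the knockout and 89.5 RPKM in wild type at day 3. At day 5 its ratio was 0.904 (0.818 to 0.999), and at day 3 it was 1.41 (1.26 to 1.57). It was the 1 gene of the 90 with intervals on opposite sides of 1, and the difference between the days was not tested. Of the peripheral stalk, which holds the head still, Atp5o (OSCP) and Atp5j (F6) differed more at day 5 (0.49 and 0.48) than at day 3 (0.16 and 0.24), and Atp5pb less (0.10 at day 5 and 0.46 at day 3). Atp5l, subunit g of the membrane part, had the lowest mean difference of complex V, -0.07 at day 5 and 0.29 at day 3. It also has the most near-identical copies, 9 other annotated genes, 8 of them pseudogenes, so its level is uncertain.

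The membrane ring of ATP synthase is built from subunit c, which 3 genes encode as precursors of the same mature protein. Atp5g1 was the one with the largest mean genotype difference of all 90 genes in log2(RPKM + 1), which understates the change of low genes such as Cycs. In a fit of the reads with voom, described below, the log2 difference was 1.00 for Cycs and 0.96 for Atp5g1. Atp5g1 was at 21.8 RPKM in the knockout and 11.5 RPKM in wild type at day 5. At day 3 it was at 11.2 RPKM in the knockout and 5.18 RPKM in wild type. At day 5 the ratio was 1.90 (1.74 to 2.06), and at day 3 it was 2.17 (1.92 to 2.45), and the difference on the log2 scale was 0.87 and 0.98. Atp5g3, the highest of the 3 in RPKM, was at 153 RPKM in the knockout and 117 RPKM in wild type at day 5. At day 3 it was at 143 RPKM in the knockout and 80.8 RPKM in wild type. Atp5g2 was at 35.1 RPKM in the knockout and 23.7 RPKM in wild type at day 5, and at 21.3 RPKM in the knockout and 18.2 RPKM in wild type at day 3. All 3 were higher in the knockout on both days, but the interval of Atp5g2 held 1 at day 3 (0.953 to 1.43). The summed level of subunit c was 210.1 RPKM in the knockout and 153 RPKM in wild type at day 5, and 175 RPKM in the knockout and 104 RPKM in wild type at day 3, which are ratios of 1.38 and 1.68. Atp5g3 made up 72.9% of the sum in the knockout and 76.9% in wild type at day 5, and 81.5% in the knockout and 77.5% in wild type at day 3. The share of Atp5g1 was 10.4% in the knockout and 7.54% in wild type at day 5. At day 3 it was 6.4% in the knockout and 4.97% in wild type. These shares rest on the transcript lengths used. In the knockout at day 5, Atp5g1 had 1608 reads and Atp5g3 had 1684, although their RPKM were far apart. Atp5g1 has 1 and Atp5g2 has 2 near-identical copies in the annotation.

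**Figure D3:**
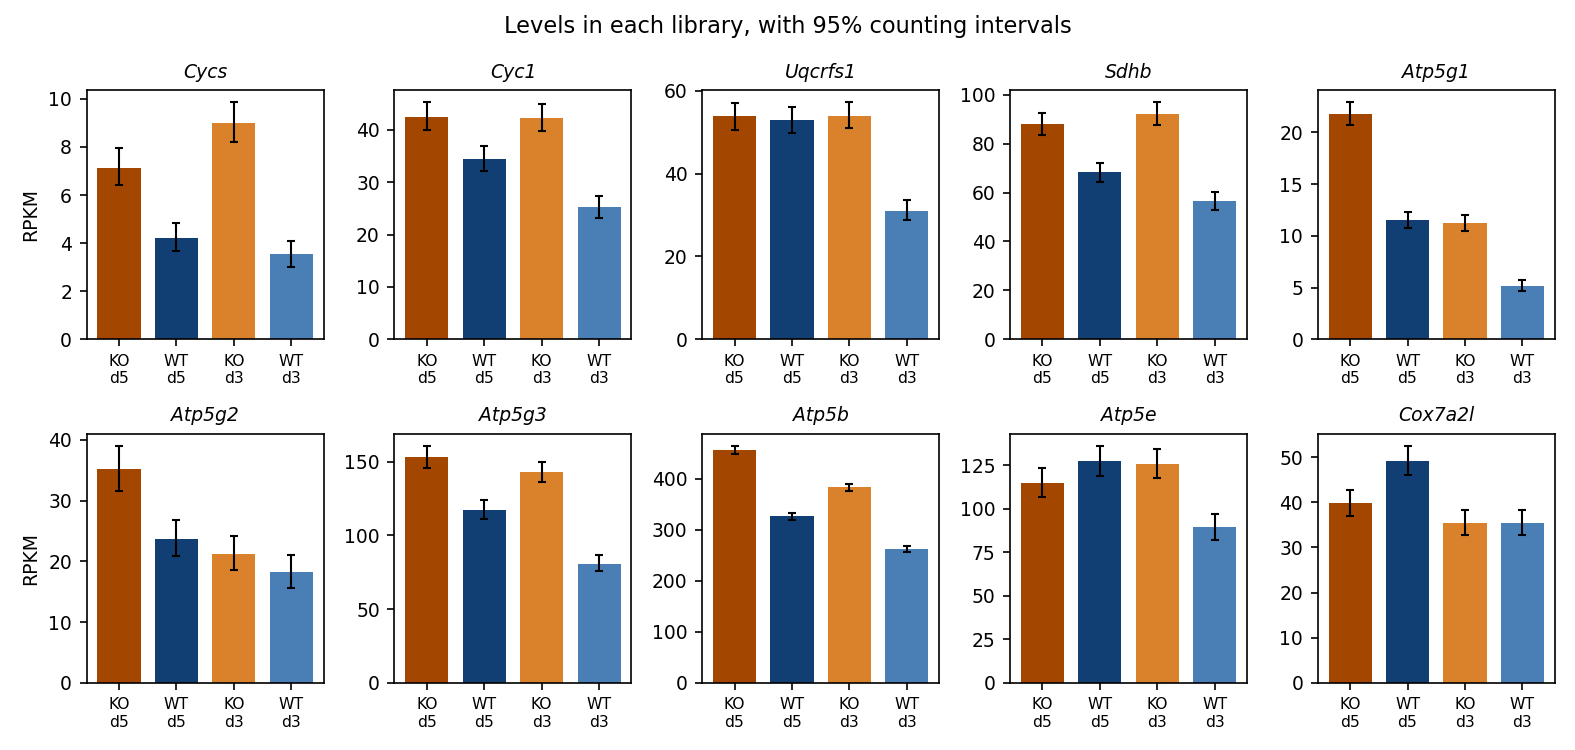
Levels of 10 genes in RPKM in each library (KO, Nfkb1 knockout, d5 and d3, day 5 and day 3), as bars from 0 with exact 95% Poisson intervals that cover counting error only. Cycs and Atp5b are higher in both knockout libraries than in both wild-type libraries, whereas Cox7a2l is highest in wild type at day 5, at 49.2 RPKM.

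The genotype difference was smaller at day 5 than at day 3 for 63 of the 90 genes, against 66.7% of all genes, so this is near the share in the whole table. In complex II the median difference was 0.23 at day 5 and 0.58 at day 3, in complex III 0.27 and 0.53, and in complex V 0.26 and 0.46. The change was smaller in complex I (0.26 at day 5 and 0.30 at day 3) and in complex IV (0.22 and 0.30). The drop in the median of the 90 genes was not there on another scale. With libraries rescaled by the median ratio, that median was 0.23 at day 5 and 0.22 at day 3. With 1 library a group, no difference between the complexes was tested.

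**Figure D4:**
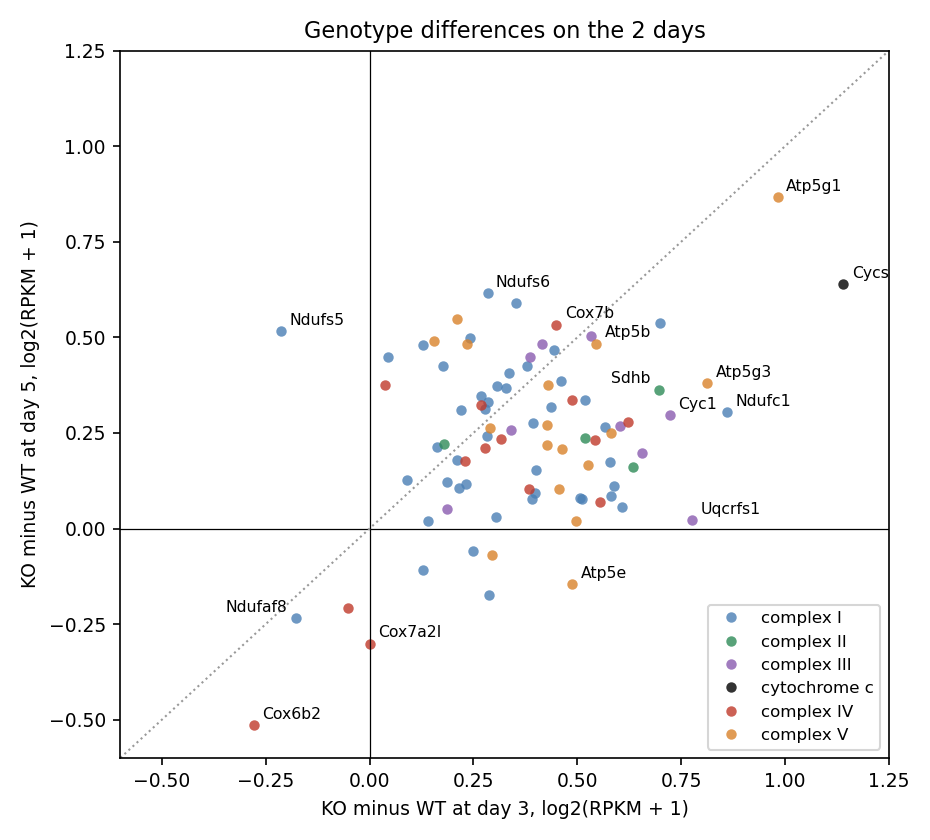
Knockout minus wild type in log2(RPKM + 1) at day 3 (x axis) and day 5 (y axis) for the 90 genes, coloured by complex, with a dotted line where both are equal. Of the genes, 80 lie above 0 on both axes, Atp5g1 and Cycs farthest out, and Cox6b2, Ndufaf8, Cox7a1 and Cox7a2l are at or below 0 on both axes.

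Between the days most of these genes were higher at day 5 in both genotypes. These comparisons use the same 4 libraries as those between genotypes. In the knockout the median of day 5 minus day 3 was 0.18, against 0.04 over all genes, with 70 of the 90 genes higher at day 5 (56.1% of all genes) and 20 lower (43.9%). In wild type the median was 0.33, against 0.16 over all genes, with 84 genes higher (69.3%) and 6 lower (30.7%). The larger value in wild type was not there on another scale. When the libraries were rescaled by the median ratio, the medians were 0.16 in the knockout and 0.16 in wild type, against 0.02 and 0.01 over all genes, with 67 genes higher at day 5 in the knockout (53.3% of all genes) and 68 in wild type (51.1%). On the recovered library totals, intervals of the ratio lay above 1 for 46 genes in the knockout (28.4% of all genes) and 64 in wild type (43.9%), and below 1 for 3 in the knockout (22.4%) and none in wild type (15.3%). The size of 0.5 was passed upwards by 3 genes in the knockout (4.96% of all genes) and 10 in wild type (13%), shares below those of all genes, and by none downwards (9.15% and 6.7%). None of the 90 was lower by 1 in the knockout (3.01%) or in wild type (2.05%). In the knockout none was higher by 1 (0.594%), and in wild type 1 gene was (1.8%), Atp5g1, at 11.5 RPKM at day 5 and 5.18 RPKM at day 3. In the knockout Atp5g1 was higher at day 5 by 0.90. By complex, the medians in the knockout were 0.18 for complex I, -0.01 for II, 0.22 for III, 0.20 for IV and 0.19 for V. In wild type they were 0.28, 0.30, 0.31, 0.39 and 0.39 in the same order. The median of complex II in the knockout turned to 0.076 when libraries were rescaled to the same sum of RPKM. Cycs had a day difference of -0.30 in the knockout and 0.21 in wild type.

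The 4 libraries had a common order for most of these genes. Wild type at day 3 was the lowest library for 79 of the 90 genes, against 49.4% of all genes. It also had the lowest factor in the rescaling by the median ratio, 0.911, and the order was not taken on rescaled libraries. The knockout at day 5 was the highest for 64 (36.4% of all genes), the knockout at day 3 for 18 (18.1%) and wild type at day 5 for 7 (28.4%). The 18 genes highest in the knockout at day 3 include Cycs, Uqcrfs1, Sdhb, Sdhc, Cox7a2 and Ndufv1, and the 7 highest in wild type at day 5 are Ndufa7, Ndufb11, Ndufaf8, Cox7a1, Cox7a2l, Atp5e and Atp5l. For 63 genes the knockout at day 3 was already above wild type at day 5, against 48.5% of all genes.

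A fit of genotype and day together with limma, which assumes the same genotype difference on both days and leaves 1 residual degree of freedom, called none of the 90 genes at an adjusted p of 0.05. For genotype it called none of the 11786 genes either (0%), with 26 of the 90 genes higher and 1 lower in the knockout at an unadjusted p under 0.05, against 19.3% of all genes in either direction. The lowest adjusted p of limma for genotype was 0.0856 for Atp5g1, followed by 0.111 for Cycs and 0.138 for Ndufaf4. With voom, another weighting in limma, run on the recovered reads, Atp5g1 (adjusted p = 0.00686) and Cycs (adjusted p = 0.0206) passed for genotype, which are 2 of 90 genes where voom called 6.12% of all genes, a larger share. For day, limma called 1.15% of all genes, and the lowest adjusted p among these genes was 0.0551, with 9 of them higher at day 5 at an unadjusted p under 0.05 (17.8% of all genes in either direction). On simulated libraries the fit called more unchanged genes than its threshold allows, so it serves as support only.

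Other mitochondrial genes, taken as whole lists, differed mostly in the same direction. The genes named from each list include the gene with its largest genotype difference on either day, so they do not stand for typical members. Over all genes, 51.2% were higher in the knockout at day 5 and 66.6% at day 3. The 78 mitochondrial ribosomal protein genes (Mrpl and Mrps), which translate the subunits encoded by mitochondrial DNA, had a median of 0.40 at day 5 and of 0.39 at day 3, and 74 were higher in the knockout at day 5 and 77 at day 3. Mrpl52 was at 88.4 RPKM in the knockout and 42.0 RPKM in wild type at day 5, and at 61.2 RPKM in the knockout and 40.3 RPKM in wild type at day 3, and Mrps22 differed by 0.93 at day 5 and 0.33 at day 3. The 17 TCA cycle genes had a median of 0.41 at day 5 and of 0.30 at day 3, with 16 higher in the knockout at day 5 and 17 at day 3. Idh2 and Idh3a, isocitrate dehydrogenases, led them, at 96.2 and 40.9 RPKM in the knockout and 54.4 and 23.3 RPKM in wild type at day 5, and at 67.0 and 30.2 RPKM in the knockout and 41.9 and 17.6 RPKM in wild type at day 3. For the ribosomal and TCA cycle lists the medians at day 5 were above that of the respiratory chain genes, but the difference between lists was not tested.

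Of 48 assembly factors of the chain with other symbols, 33 were higher in the knockout at day 5 (51.2% of all genes) and 42 at day 3 (66.6%). Their medians were 0.10 and 0.26. Cmc2, a complex IV assembly factor, differed by 0.62 at day 5 and 0.84 at day 3, and Sdhaf3, which helps load iron-sulfur clusters into Sdhb, by -0.32 at day 5 and 0.87 at day 3. The 17 accessory genes of the chain, 2 of which (Atp5md and Atp5mpl) are also among the 90 genes, had a median of 0.23 at day 5 and of 0.50 at day 3. Among them Chchd4, the import receptor for small proteins of the intermembrane space, was at 18.3 RPKM in the knockout and 10.0 RPKM in wild type at day 5, and at 18.3 RPKM in the knockout and 7.90 RPKM in wild type at day 3. Gpd2, which feeds electrons from glycerol 3-phosphate into the chain, differed by 0.57 at day 5 and 0.64 at day 3. The 19 regulators of mitochondrial biogenesis had a median of 0.27 at day 5 and of 0.24 at day 3. Of them, 13 were higher in the knockout at day 5 (51.2% of all genes) and 16 at day 3 (66.6%). Myc, a transcription factor of growing cells, was at 40.4 RPKM in the knockout and 24.8 RPKM in wild type at day 5, and at 35.6 RPKM in the knockout and 21.4 RPKM in wild type at day 3. Tefm, a mitochondrial transcription elongation factor, differed by 0.01 at day 5 and 0.56 at day 3.

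**Figure D5:**
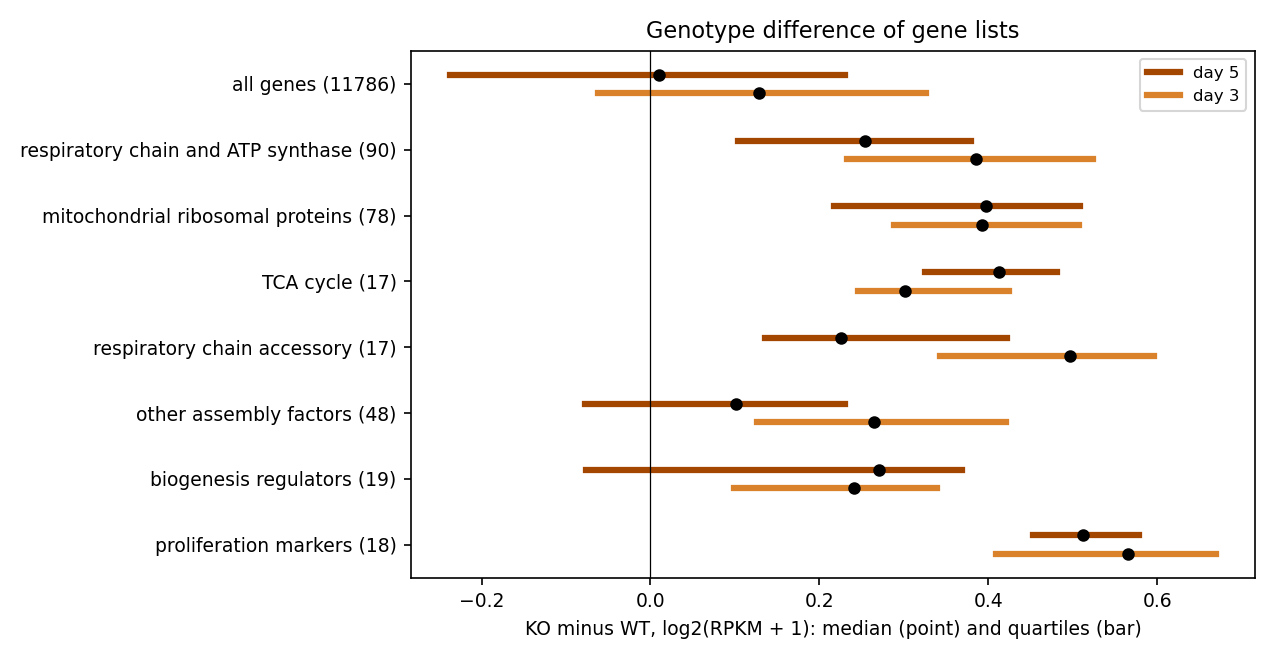
Knockout minus wild type in log2(RPKM + 1) at day 5 and day 3 for all genes, the 90 genes and 6 other lists (number of genes in brackets), as median points and bars from the lower to the upper quartile. The lists have medians above that of all genes on both days, and the proliferation markers are highest at day 3, at 0.57.

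The cultures also differed in markers of growth and of cell type, and in bulk RNA a different mix of cells cannot be told apart from a different amount of RNA per cell. Over all genes, 51.2% were higher in the knockout at day 5 and 48.8% lower, and at day 3 66.6% were higher and 33.4% lower. The 18 proliferation markers summed to 1300 RPKM in the knockout and 914 RPKM in wild type at day 5, and to 949.9 RPKM in the knockout and 681 RPKM in wild type at day 3. All 18 were higher in the knockout at day 5 and 17 at day 3, with Ccnb1, the mitotic cyclin, differing by 0.59 and 0.94, and the checkpoint kinase Bub1 by 0.52 and 0.77. Of the 12 neutrophil markers, 11 were lower in the knockout at day 5 and 9 at day 3. Their summed level was 3074 RPKM in the knockout and 13150 RPKM in wild type at day 5, and 23140 RPKM in the knockout and 32330 RPKM in wild type at day 3, and no marker stood at 1 read. The library with the lowest respiratory chain sum, wild type at day 3, thus had the highest neutrophil marker sum, and the library with the highest chain sum, the knockout at day 5, the lowest. Of the other 2 libraries, the knockout at day 3 was above wild type at day 5 in both sums. The proliferation sums had the same order over the libraries as the chain sums, and so had the sums of the mitochondrial ribosomal list. None of these orders was tested. Of the 9 monocyte and macrophage markers, 7 were higher in the knockout on each day, with sums of 1497 RPKM in the knockout and 911 RPKM in wild type at day 5, and of 1667 RPKM in the knockout and 963 RPKM in wild type at day 3. Of the 13 markers of conventional dendritic cells, 12 were lower in the knockout at day 5 and 11 at day 3, and their median differences were -1.27 and -0.48. All 7 genes of class II presentation were lower in the knockout on both days, with sums of 1883 RPKM in the knockout and 4745 RPKM in wild type at day 5, and of 1628 RPKM in the knockout and 2957 RPKM in wild type at day 3.

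Lists of rarer cell types differed as well, where 48.8% of all genes were lower in the knockout at day 5 and 33.4% at day 3. The 9 erythroid markers, mostly globin genes, summed to 9.88 RPKM in the knockout and 26.96 RPKM in wild type at day 5, and to 111 RPKM in the knockout and 521 RPKM in wild type at day 3, and the 7 that passed the filter were lower in the knockout on both days. Wild type at day 3, the library with the lowest respiratory chain sum, thus had the highest erythroid sum too. As for the neutrophil markers, the knockout at day 3 was above wild type at day 5 in both sums. Hbb-b1 and Hbb-bs each listed 441 reads in the knockout at day 3 and 85 in wild type at day 5. Hba-a1 and Hba-a2 each listed 148 and 52 there. The erythroid sums and count may thus hold the same reads more than once. The 7 basophil and mast cell markers summed to 46.3 RPKM in the knockout and 248 RPKM in wild type at day 5, with 7 lower in the knockout, and to 146 RPKM in the knockout and 168 RPKM in wild type at day 3, with 4 lower. The 6 megakaryocyte markers summed to 349 RPKM in the knockout and 770.1 RPKM in wild type at day 5, with 6 lower in the knockout, and to 368 RPKM in the knockout and 319 RPKM in wild type at day 3, with 1 lower. Of the 8 plasmacytoid dendritic cell markers, 7 were lower in the knockout on each day, with sums of 307 RPKM in the knockout and 450.1 RPKM in wild type at day 5, and of 333 RPKM in the knockout and 329.6 RPKM in wild type at day 3. The interval of the ratio lay below 1 for 7 of them at day 5 and for 5 at day 3. The exception at day 3 was Bst2, at 178 RPKM in the knockout and 147 RPKM in wild type. The 8 B cell markers summed to 116 RPKM in the knockout and 197 RPKM in wild type at day 5, and to 327 RPKM in the knockout and 359.9 RPKM in wild type at day 3. Of the 6 that passed the filter, 5 were lower in the knockout at day 5, and 3 were lower and 3 higher at day 3. Rag1 was higher on both days, with ratios of 2.03 at day 5 and 2.21 at day 3. The 7 T and NK cell markers were low, with sums of 2.96 RPKM in the knockout and 11.2 RPKM in wild type at day 5, and of 11.95 RPKM in the knockout and 25.2 RPKM in wild type at day 3, and 1 of them stood at 1 read in the knockout at day 5. Of the 6 T and NK cell markers that passed the filter, 6 were lower in the knockout at day 5 and 5 at day 3. The part of cell mix and of proliferation in the respiratory chain differences was not tested.

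Of 4 motifs searched, the NRF1 letters stood in the highest share of these promoters. RefSeq windows, from 250 bases before to 50 after the start, were at hand for 76 of the 90 genes. The letters GCGCATGC stood on either strand in 13 of the 76 (17.1%), against 6.11% of 9051 genes that passed the filter and 3.05% of all 27025 genes with a window. They were Atp5g2, Atp5k, Atp5l, Cox6a1, Cycs, Ndufa11, Ndufa6, Ndufa8, Ndufaf4, Ndufaf5, Sdhb, Uqcr11 and Uqcrc1, so every complex had at least 1. The 13 genes had median genotype differences of 0.45 at day 5 and 0.41 at day 3, and the 63 others 0.23 and 0.34. The splits for the other motifs follow, and none of the splits was tested or computed over all genes that passed. The medians with the YY1 letters were 0.24 at day 5 and 0.28 at day 3, against 0.25 and 0.38 in genes without them, those with the ETS letters 0.26 and 0.29, against 0.24 and 0.38, and those with the kappa B letters 0.30 and 0.33, against 0.25 and 0.38. The YY1 letters ATGGCGGC stood in 7 genes (9.21%, against 6.08% of genes that passed and 2.6% of all genes with a window), all of complex I, and the ETS letters CCGGAAGT in 5 (6.58%, against 9.74% and 4.31%). The kappa B letters GGNNTTTCC, the kind of site that p50 and RelA are known to bind, stood in 4 genes (5.26%, against 7.34% and 6.62%), namely Ndufa4, Ndufa6, Ndufaf7 and Sdhb. A match of letters is a description and not a site, and the window of Ndufa6 held both NRF1 and kappa B letters, as the Sdhb window shown above did.

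Near-identical gene copies limit some of these values. In the reference annotation, 28 of the 90 genes had at least 1 other annotated gene with a transcript at 95% identity or more, and 62 had none. For Ndufa13, Ndufb5, Ndufb6, Ndufb9 and Uqcrc2 the other gene matched at 100% identity and was not a pseudogene. Identity alone does not tell a copy elsewhere from a second annotation of the same place. The 28 genes had a median of 0.25 at day 5 and of 0.34 at day 3, and the 62 genes 0.25 and 0.39. Of the 18 genes with a mean under 15 RPKM, 8 are the assembly factors, and Ndufa12, Ndufab1, Ndufs5, Cycs and Atp5g1 are the 5 with at least 1 copy.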

How the data were processed

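Per the labels' protocols, cells were taken up in trizol, RNA was extracted with phenol-chloroform, and the Kapa mRNA HyperPrep kit was used for library construction. HISAT2, SAMtools and the mm9 build were used, per the submitters' processing notes. The sources used here do not give the counting tool, its annotation or its use of strand, so genes that overlap or have close copies may share reads. The authors deposited RPKM values for 26026 genes in 1 column per library, per the file headers, and 0 columns were left unused.

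RPKM values were analysed as log2(RPKM + 1) with no further scaling. Whole reads were recovered from the steps between values for all 26026 genes, to within 0.003 reads. No gene stood at 0, and 7985 stood at 1 read in all libraries, so a gene without reads may be listed at 1 read. For a few genes only a whole fraction of the reads may have been recovered, which widens their intervals. Ratios of reads have exact (Clopper-Pearson) 95% intervals. These cover counting error only and may be too narrow, since reads were not tied to single molecules by identifiers. An additive fit of genotype and day used limma 3.58.1 with Benjamini-Hochberg adjustment over all 11786 genes. Procedures were tested on simulated libraries with changed genes. With 1 library per group the sizes of 1 and 0.5 on the log2 scale describe libraries and test nothing.

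The genes, complexes, lists and motifs were chosen with earlier results of these data known. Named genes are those that differed by 1 in a comparison. For each complex the gene with the highest level and those with the largest and lowest mean genotype difference were added, as were Cycs, Cyc1, the Sdh genes, isoform groups and up to 3 assembly factors. These 3, Ndufaf4, Ndufaf5 and Ndufaf2, had the largest genotype differences on either day among the Ndufaf genes. Nfkb1 and 2 genes of each pathway list on at least 20 reads were also named, while cell type marker lists are given by counts and sums, and other genes named with values serve to describe a role. The 2 genes of a pathway list include the gene with its largest genotype difference on either day, so they show the far end of the list. All 97 symbols matched RefSeq, and 78 had a promoter window. Close copies were found with blastn 2.17.0 on reference transcripts, at 95% identity over 200 bases or over 50% of a shorter transcript. Alternatives were a pseudocount of 0.1 or 5 RPKM, keeping all genes or those averaging 5 RPKM or more, libraries rescaled to a median ratio of 1 or to equal sums, and robust or trended moderation in limma. A limit of 20 RPKM on the mean and a voom fit of recovered reads were added after seeing the data.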

Additional observations from a re-analysis of the deposited data

Results flagged for a closer look

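Atp5e, the epsilon subunit of the ATP synthase head, was flagged because its genotype difference had opposite signs on the days with both counting intervals off 1. The change of the log2 difference from day 3 to day 5 was -0.63, with -0.14 at day 5 and 0.49 at day 3. With 1 library per group the difference between the days was not tested. The interval at day 5, 0.818 to 0.999, ends close to 1.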

How the results depend on the processing

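No paired analysis was possible because each group is 1 library and the labels carry no replicate numbers and leaving out a replicate would leave its group empty. Of 322 alternative values, 284 stayed the same, 37 moved and 1 reversed. The cause was not tested, except that a larger pseudocount shrinks the change of low genes by construction and a stricter filter tests fewer of them.

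With libraries rescaled by the median ratio, knockout minus wild type at day 3 had medians of 0.41 in complex II, 0.37 in III, 0.13 in IV and 0.29 in V, with 8 genes higher by 0.5 (5.12% of all genes). Day 5 minus day 3 in wild type then had medians of 0.13, 0.14, 0.23 and 0.23 in the same complexes, with 3 genes higher by 0.5 (6.71% of all genes) and 0 by 1 (1.23%). With libraries rescaled to the same sum, the median of complex II for day 5 minus day 3 in the knockout reversed to 0.076. Counts of genes higher in the knockout by 0.5 were then 15 at day 5 (9.67% of all genes) and 15 at day 3 (7.33%), none (0) was lower by 0.5 at day 5 (10.6%), 7 were higher at day 5 in the knockout by 0.5 (8.13%) and 0 in wild type by 1 (1.67%).

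With a pseudocount of 5 RPKM, Cycs differed by 0.71 at day 3, and 3 genes were higher in the knockout by 0.5 at day 5 (4.23% of all genes, a larger share) and 17 at day 3 (4.89%), 0 lower by 0.5 at day 5 (5.15%), and 0 higher by 1 at day 3 (0.229%). In wild type 5 were then higher at day 5 by 0.5 (4.99%) and 0 by 1 (0.492%). With a pseudocount of 0.1 RPKM, 2 genes were higher in the knockout by 1 at day 3 (1.93% of all genes) and 1 was lower at day 5 in the knockout cultures by 0.5 (11.2%). Without a filter, 2 genes were lower in the knockout by 0.5 at day 5 (5.93%), and 0 with a mean of at least 5 RPKM (9.01%). With a mean of at least 20 RPKM, 4 genes were higher by 0.5 (11.4% of all genes) and 0 lower (8.88%) at day 5, 0 were higher by 1 at day 3 (1.01%), 1 was higher at day 5 in the knockout by 0.5 (4.93%), and 0 in wild type by 1 (1.11%).

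The limma fit called 1 gene, Atp5g1, for day with a mean of at least 5 RPKM (adjusted p = 0.0383), with the median ratio (0.045), with an intensity trend (0.0395) and with voom (0.00284), where it called 2.3%, 2.43%, 1.73% and 6.04% of all genes in the same order, larger shares than 1 of 84 genes with the stricter filter or 1 of 90. With voom, 2 genes were called for genotype (6.12% of all genes). Few reads limit the assembly factors and minor isoforms most, and having 1 library in each group limits all comparisons.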

Other observations

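Values of genes next to the rule are given without a test. Cox6a2, a complex IV isoform of muscle that is also a plasmacytoid dendritic cell marker and was left out by the rule, was at 26.3 RPKM in the knockout and 19.96 RPKM in wild type at day 5, and at 10.2 RPKM in the knockout and 16.4 RPKM in wild type at day 3. The pseudogene Ndufs5-ps, also left out, was at 7.13 RPKM in the knockout and 5.30 RPKM in wild type at day 5, and at 6.83 RPKM in the knockout and 4.73 RPKM in wild type at day 3. Sod2, the mitochondrial superoxide dismutase, was at 55.2 RPKM in the knockout and 19.96 RPKM in wild type at day 5, and at 60.7 RPKM in the knockout and 23.8 RPKM in wild type at day 3. That excess in the knockout is larger than the one of any of the 90 respiratory chain genes at day 5, where Atp5g1 had a ratio of 1.90. Of the 7 respiratory chain genes under the filter, the duplicate gene Ndufb4c had the highest mean, at 0.682 RPKM in the knockout and 1.04 RPKM in wild type at day 5, and at 0.648 RPKM in the knockout and 0.413 RPKM in wild type at day 3. Cox4i2 was next, at 0.983 RPKM in the knockout and 1.02 RPKM in wild type at day 5, and at 0.339 RPKM in the knockout and 0.271 RPKM in wild type at day 3.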
